A study of Mus musculus with 12 samples.

Results

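The miR-297, miR-466, miR-467 and miR-669 families are the miRNAs of a large hairpin cluster inside an intron of the mouse gene Sfmbt2. Every entry of the 12 deposited miRNA lists whose name begins with miR-297, miR-466, miR-467 or miR-669 was taken, together with the Sfmbt2 entries of a list of small RNAs from genes in control DN3 thymocytes. This gave 452 of 7354 miRNA list entries. They fall under 34 of 473 names, counting an arm or a "pre" label as part of the name, of which 28 are mature miRNAs and 6 carry the label "pre", used by the authors for hairpin sequence outside the annotated mature miRNA. Some pre sequences only extend a listed mature sequence at its 3′ end. They comprise 100 of the 1422 distinct sequences in the DN3 and Treg lists. The gene list added 59 of 54267 entries.

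The libraries came from 4 cell types of C57BL/6-backcrossed mice in 3 genotypes, with 1 library per combination. DN3 thymocytes are T cell precursors of the thymus that carry neither CD4 nor CD8. They were sorted from Lck-cre mice, as a control with Cre alone or with a Drosha or Dicer deficiency in addition. CD4+CD25+ regulatory T cells (Treg) and CD4+ T cells, the latter called activated in the series title, were sorted from the spleens and lymph nodes of mice carrying CD4-cre, with the same 3 genotypes. Mouse embryonic fibroblasts (MEF) came from E14.5 embryos with the inducible Rosa26-CreER. Mouse age is given as 6 to 7 weeks for all libraries, also those of the embryonic cells. Lck-cre and CD4-cre act in T lineage cells, and Rosa26-CreER acts in all cells once tamoxifen is given, a step the labels do not describe. The lists hold neither Drosha nor Dicer mRNA, so the extent of each deficiency was not measured.

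Most miRNAs are made in 2 cuts. In the nucleus Drosha frees a hairpin from the longer primary RNA. Dicer then cuts off its loop in the cytoplasm, which leaves a duplex of the 5p and 3p arms, and 1 strand is usually retained by an Argonaute protein. Bases 2 to 8 of that strand, the seed, pair with target mRNAs. Sfmbt2 encodes a Polycomb-group protein, and it is an imprinted gene expressed from the paternal allele in the placenta, where its intronic miRNAs are known to be abundant. The hairpins are repeats of each other, rich in TG on the 5p arm and CA on the 3p arm, so a short read can fit several of them.

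The sequences below are the most abundant one of each of the 10 names with the highest values, and of the names that share a seed with them, read from the DN3 and Treg lists. Seeds are in capitals, and sequences run 5′ to 3′ with T in place of U. Together they show why the families are grouped by seed and not by name.
miR-467e: aTAAGTGTgagcatgtatatgt
miR-467c: aTAAGTGCgtgcatgtatatgt
miR-467d: tAAGTGCGcgcatgtatatgc
miR-467a: tAAGTGCCtgcatgtatatgcgt
miR-669a: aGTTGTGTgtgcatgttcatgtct
miR-669f (pre): aGTTGTGTgtgcatgtgcatgtgt
miR-669b: aGTTTTGTgtgcatgtgcatgtgt
miR-669c: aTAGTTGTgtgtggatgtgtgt
miR-297a: aTGTATGTgtgcatgtgcatgt
miR-297c: aTGTATGTgtgcatgtacatgt
miR-297b-5p: aTGTATGTgtgcatgaacatgtgt
miR-466h: tGTGTGCAtgtgcttgtgtgtat
miR-466f (pre): tGTGTGCAtgtgcatgtgtgtat
miR-466h (pre): tGTGTGCAtgtgcttgtgtgtatgt
miR-466j: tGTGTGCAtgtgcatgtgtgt
miR-669a (pre): aCATAACAtacacacacacgt

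Apart from miR-466j, which fits both arms, all but the last of these lie on the 5p arm of a hairpin. The miR-669a (pre) sequence lies on the 3p arm of 12 hairpins and the miR-669a sequence on the 5p arm of 14, so the sets are not identical. Here "pre" names an arm that the miRNA annotation behind the lists did not hold as a mature miRNA. The other 3p sequences on which a result turns are those of miR-466b and miR-466d, shown because they were the lowest members in 1 library, and that of miR-669f.
miR-466b-3p: aTACATACacgcacacataaga
miR-466d-3p: tATACATAcacgcacacataga
miR-669f: cATATACAtacacacacacgt

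The 100 sequences held 27 seeds, and none of the 27 occurred in another miRNA of the DN3 and Treg lists. The seed GTTGTGT of miR-669a and miR-669f (pre) made up 17.8% of the members' value summed over these 6 libraries. TAAGTGT of miR-467e made up 15.4%, AAGTGCG of miR-467c and miR-467d 14.2%, and CATAACA of the miR-669a 3p arm 12.5%. TGTATGT of the 3 miR-297 names made up 3.37%. A TG, GT, CA or AC step made up a median of 62.5% of the neighbouring base pairs in the 100 sequences (range 26.3% to 81.8%), against 31.6% in the 1322 other sequences (range 4.76% to 60%). On the 5p arm the median was 52.2% for TG or GT steps (77 sequences), and on the 3p arm it was 55.1% for CA or AC steps (22 sequences).

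In the GENCODE M21 annotation of GRCm38, Sfmbt2 lies at chr2:10370510-10595253 on the plus strand. Of 81 annotated hairpins of the 4 families, 71 lie inside it, all on its strand and all in intron 11 (chr2:10461473-10523944). They span chr2:10466663-10518279, which is 51617 bp, and the nearest begins 96153 bp from the start of the gene. All 100 listed sequences fit a hairpin of this intron exactly, and 6 of them fit a hairpin elsewhere as well. A single hairpin was matched by 47 sequences and several by 53, with a maximum of 14 for miR-669a. The names miR-466j, miR-466k and miR-467g have their annotated hairpin only outside Sfmbt2, although the miR-466j sequence also fits the intron. Sequences of a single hairpin made up 54.5% to 63.4% of the members' value in the 6 libraries.

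**Figure D1:**
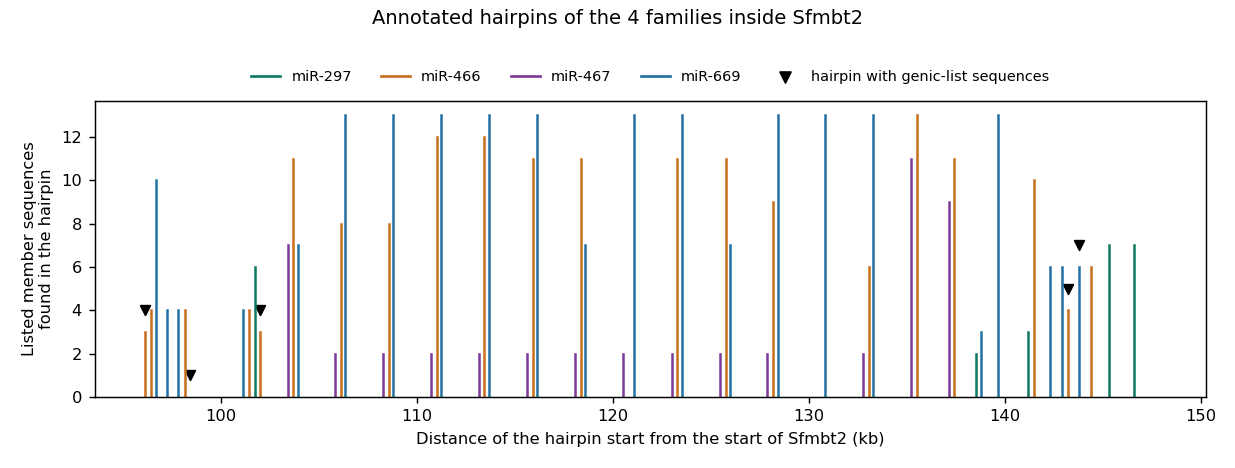
Each vertical line is 1 of the 62 annotated hairpins with a listed sequence, of 71 in all, of the miR-297 (green), miR-466 (orange), miR-467 (purple) and miR-669 (blue) families inside Sfmbt2. Its place on the horizontal axis is the distance from the gene start in kb, its height the number of listed member sequences that fit it, and a triangle marks each of the 5 hairpins that hold sequences of the gene list. The repeated units of miR-466, miR-467 and miR-669 hairpins in the middle share their sequences, and the 9 hairpins that fit none have no line.

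The values are mapping counts that the authors normalised so that a library sums to about 1000000 (893850 to 1027032), so each is a level within its own library, and a fall of all miRNAs together could not be seen. DN3 and Treg lists give 1 value per distinct sequence, none under 10, and values were summed per name. CD4 and MEF lists give 1 value per mature miRNA, with lowest values of 20, 526 and 645 in CD4 control, Drosha and Dicer and of 11, 13 and 11 in the MEF libraries. A name that is not listed in CD4 or MEF was therefore below this floor, and not known to be at 0. In DN3 and Treg the floor of 10 holds for each sequence. There an unlisted name had no sequence at 10 or more, and the sum over its sequences is unknown. The sequencing depth of the DN3 and Treg lists is unknown. Low values of the CD4 and MEF lists rise in whole steps (within 0.6 for 66.7% to 100% of them), as if each step were 1 read, which implies about 100000, 7600 and 6200 reads in the CD4 libraries and 273600, 77300 and 270600 in the MEF libraries. The miRNAs of T lymphocytes (miR-181a, miR-150, miR-142, miR-155 and miR-146a) held 13.7%, 16.1%, 7.81% and 0.822% of the DN3, Treg, CD4 and MEF controls, and those of fibroblasts 13.2% of the MEF control and at most 0.0459% of the other controls.

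The DN3 and Treg libraries held nearly all of the members' value. The summed member value in the DN3 control was 6838, which is 0.688% of the library. It was 3074 (0.309%) in DN3 Drosha and 7514 (0.756%) in DN3 Dicer. The Drosha library was the low one of the 3, and the Dicer library was near the control.

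In Treg the summed value was 4963 (0.495%) in the control, 3390 (0.330%) in Drosha and 4585 (0.451%) in Dicer. The order was the same as in DN3 for the Drosha library, with a smaller difference. All 3 Treg values lay inside the range of the 3 DN3 values.

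In CD4 cells the sum was 760 in the control, or 0.0758% (95% exact Clopper-Pearson interval 0.0599% to 0.0951%, counting error only, from 76 implied reads). It was 526 in CD4 Drosha from about 4 listed reads (0.0577%, interval 0.0143% to 0.135%), and no member was listed in CD4 Dicer. These intervals count listed reads only, and names under the floor of a library are left out. For CD4 Dicer no upper limit can be given, since each unlisted name could hold reads below the floor. At the control share CD4 Dicer would hold 4.71 member reads over all names, while a name had to reach 4 reads to be listed, so a difference between the CD4 libraries was not detectable at this depth.

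The MEF control sum was 182 (0.0182%, interval 0.0136% to 0.0241%), that of MEF Drosha 104 (0.0105%, interval 0.00447% to 0.0204%) and that of MEF Dicer 110 (0.0110%, interval 0.00748% to 0.0158%). These rest on 50, 8 and 30 implied reads, and the intervals of all 3 libraries overlap. They too count listed reads only, where the lowest listed value was about 3, 1 and 3 reads. Since the lists come in 2 formats that need not share their processing, the gap between DN3 or Treg and the other cell types was not tested.

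**Figure D2:**
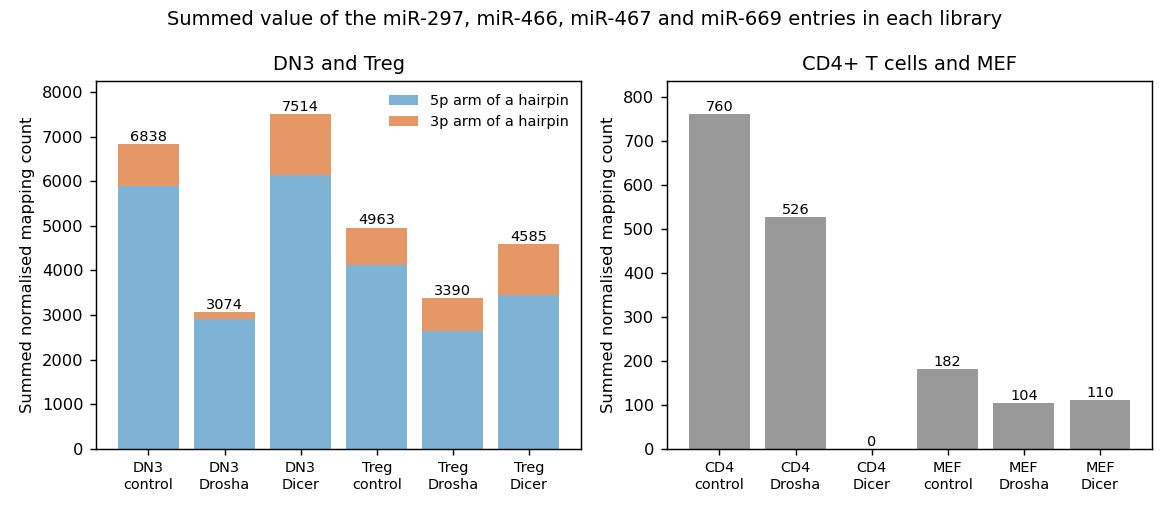
Bars give the summed normalised mapping count of the members in each library, with DN3 and Treg on the left, split by the hairpin arm that each sequence lies on, and CD4+ T cells and MEF on the right with an axis of their own. The DN3 Drosha bar (3074) is the lowest of the left panel, with a 3p part of 168. A sequence that fits both arms is left out of the split, which makes the stacks of DN3 Dicer and Treg control shorter than the printed sums by 17 and 14.

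Within the members, miR-467 and miR-669 made up most of the value in DN3 and Treg. In the DN3 control miR-467 held 45.0% of the sum, miR-669 39.5%, miR-466 11.1% and miR-297 4.43%. In the Treg control they held 51.8%, 38.5%, 5.98% and 3.73%. In the CD4 and MEF controls the order differed, with 80.3% and 63.7% on miR-466 and no miR-297 name listed.

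Of the 34 names, 28 were listed in DN3 or Treg, 17 in CD4 or MEF and 11 in both. The DN3 libraries had 21 names listed in all 3 genotypes and the Treg libraries 19, while the CD4 libraries had 0 and the MEF libraries 1, miR-466j. The names found only in CD4 or MEF were miR-466f, miR-466f-3p, miR-466k, miR-467g, miR-669e and miR-669h-5p. The most abundant name of the DN3 and Treg lists, miR-467e, was in none of the CD4 and MEF lists, and neither were miR-467c, miR-669c and miR-466b-3p.

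miR-467e, with the seeds TAAGTGT and AAGTGTG, had values of 1457, 805 and 1752 in DN3 control, Drosha and Dicer. In Treg its values were 1176, 799 and 1075. The Drosha library was lowest in both cell types, with near-equal values of 805 and 799.

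miR-467c had 784, 437 and 985 in DN3 control, Drosha and Dicer, and 616, 467 and 593 in Treg. miR-467d had 681, 227 and 767 in DN3 and 612, 369 and 456 in Treg. The pair share both of their seeds, and the Drosha library was again the lowest for each in each cell type. miR-467d was also among the few members seen outside these cells, at 40 in the CD4 control, 22 in the MEF control and 11 in MEF Dicer.

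miR-467a, the member whose sequence fits 11 hairpins, had 153, 36 and 152 in DN3 and 165, 158 and 99 in Treg. In DN3 Drosha was far below both other libraries, whereas in Treg it was close to the control and Dicer was the low one. It was listed at 20 in the CD4 control and at 11 in the MEF control.

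miR-669a, the 5p arm of up to 14 hairpins, had 1189, 547 and 1234 in DN3 control, Drosha and Dicer and 790, 437 and 673 in Treg. Its 3p arm, listed as miR-669a (pre), had 631, 155 and 983 in DN3 and 741, 597 and 963 in Treg. Both arms were lowest in the Drosha library of each cell type, but on the 3p arm the Dicer library was the highest, above the control in DN3 and in Treg. Outside these lists miR-669a was at 40 in the CD4 control.

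miR-669c had 362, 230 and 150 in DN3 and 112, 102 and 113 in Treg. It was the only member at least 1 log2 unit lower in DN3 Dicer than in the control, and the 3 Treg libraries were nearly equal. miR-669b had 259, 167 and 208 in DN3 and 119, 87 and 112 in Treg. The 5p sequence listed as miR-669f (pre) had 140, 107 and 127 in DN3 and 77, 22 and 60 in Treg.

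The 3p miRNA miR-669f had 51 and 82 in DN3 control and Dicer, was not listed in DN3 Drosha, and had 27, 43 and 55 in Treg. miR-669d had 70, 13 and 58 in DN3 and 46, 41 and 36 in Treg. For both, the DN3 Drosha library stood apart from the other libraries, and the Treg Drosha library did not.

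miR-297a, with the seed TGTATGT, had 195, 77 and 138 in DN3 and 98, 37 and 60 in Treg. miR-297c, with the same seed, had 75, 43 and 98 in DN3 and 59, 16 and 36 in Treg. For both names Drosha was lowest in each cell type. miR-297b-5p had 23, 12 and 27 in DN3 and 28 in the Treg control alone, and miR-297b-3p was listed only at 10 and 12 in DN3 control and Dicer.

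Of the miR-466 names, miR-466b-3p had 207, 13 and 194 in DN3 control, Drosha and Dicer, and 35, 74 and 80 in Treg. This was the lowest Drosha value relative to control of any member in DN3, while in Treg the control was the low library. miR-466d-3p, at lower values, had 48 and 59 in DN3 control and Dicer, no listing in DN3 Drosha, and 20, 32 and 46 in Treg, where the control was again the low library.

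miR-466h had 127, 77 and 99 in DN3 and 58, 26 and 65 in Treg. It was the leading named member of the MEF control at 40, stood at 22 in MEF Dicer, and had 170 in the CD4 control. Only miR-466f, which the DN3 and Treg lists hold under other labels, was higher in the CD4 control, at 180, with 25 in the MEF control and 26 in MEF Dicer. miR-466f-5p had 33, 15 and 39 in DN3, 12 in Treg control and in Treg Dicer, 110 in the CD4 control, and 18 and 14 in MEF control and Dicer.

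miR-466d-5p had 63, 10 and 59 in DN3 and 10, 13 and 12 in Treg. miR-466c-5p had 66, 22 and 62 in DN3, 27 and 15 in Treg control and Drosha, 40 in the CD4 control and 26 in MEF Drosha. In DN3 both had their low value in Drosha, and the Treg values lay close to the floor of 10.

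The sequences listed as pre behaved as follows. Those of miR-466h (pre) and miR-466b (pre) and the 5p sequence of miR-466d (pre) are not separate products by sequence. They have the 5′ start of listed miR-466h, miR-466b-5p and miR-466d-5p sequences and are longer at the 3′ end. Counting them apart splits these by length. miR-466f (pre) had 72, 45 and 64 in DN3 and 32, 18 and 28 in Treg. miR-466d (pre) had 19, 14 and 50 in DN3 and 29, 10 and 11 in Treg. This name pools a 5p sequence, with 19, 14 and 24 in DN3 and 18, 10 and 11 in Treg, with 3p sequences. The 3p sequences were listed only in DN3 Dicer (14 and 12) and the Treg control (11). miR-466b (pre) had 23, 12 and 24 in DN3 and 21 and 15 in Treg control and Drosha. Drosha was the lowest listed library for each. Apart from miR-466f (pre) in DN3, the Drosha values of 10 to 18 lay near the floor of 10.

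The remaining names had few listed values. miR-466j had 17 in DN3 Dicer, 14 in the Treg control, 40 in the CD4 control and 22, 26 and 11 in the MEF libraries. miR-466a-5p had 40 and 47 in DN3 control and Dicer and 27 in the Treg control. Neither of these names was listed in the Drosha library of DN3 or Treg.

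miR-466b-5p had 40 and 27 in DN3 control and Dicer, 12 in Treg control and in Treg Drosha, and 20 in the CD4 control, and miR-466h (pre) had 20 and 10 in DN3 control and Drosha. Besides miR-466j in DN3 Dicer, names that a deficient library listed and its control did not were miR-466f-3p at 526 in CD4 Drosha, which is about 4 reads, and, at 26 each, miR-466f-3p, miR-466c-5p and miR-467g in MEF Drosha and miR-466k in MEF Dicer. miR-466k was also at 50 in the CD4 control, and miR-669e at 30 and miR-669h-5p at 20 were listed there alone.

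**Figure D3:**
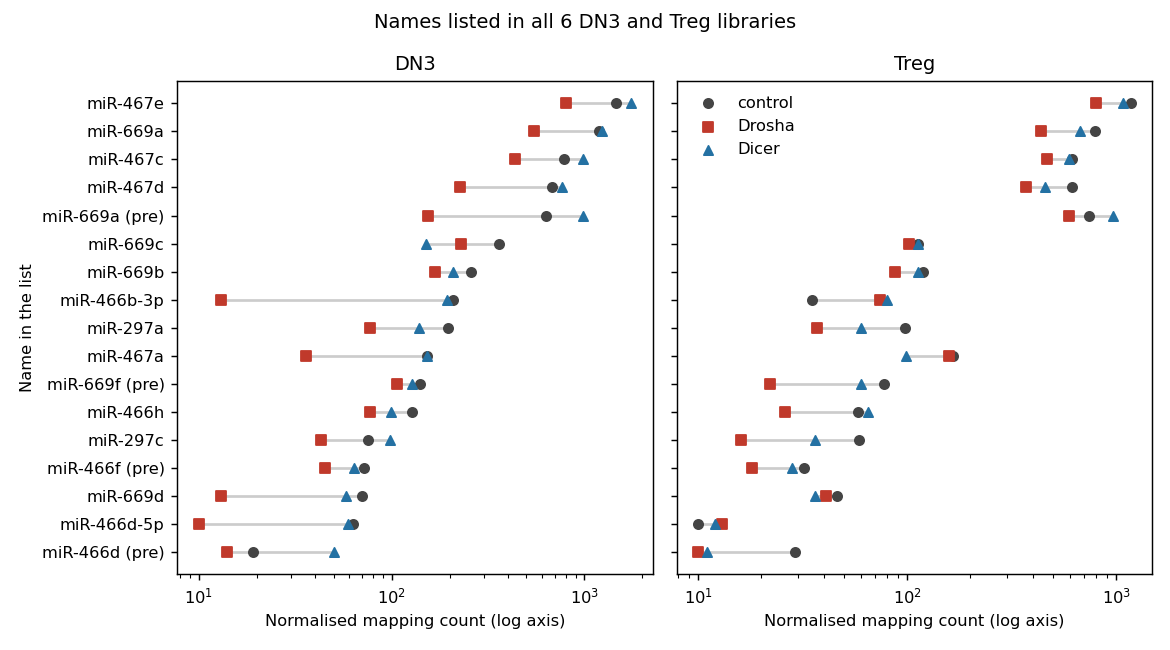
The 17 names listed in all 6 DN3 and Treg libraries are ordered by their DN3 control value, with the normalised mapping count on a log axis, circles for control, squares for Drosha and triangles for Dicer. Each symbol is 1 library. In DN3 the Drosha square is the leftmost symbol for every name but miR-669c, whereas in Treg it is not for miR-466b-3p, miR-466d-5p, miR-467a and miR-669d.

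The question of the design is which small RNAs depend on Drosha and which on Dicer. With 1 library per genotype no test is possible within a cell type, so ratios are given against the median miRNA of the same pair of libraries (mature miRNAs listed in both with a summed value of at least 50), as log2 ratios with a pseudocount of 0.5. The summed member value of DN3 Drosha was 2.22-fold below the control, a log2 ratio of -1.15, while the median miRNA was at -0.38. Relative to that median the sum was at -0.77.

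All 22 members listed in both DN3 Drosha and control lay below the median miRNA, from -3.56 (miR-466b-3p) to -0.01 (miR-669f (pre)), with a median of -0.56 against -0.01 for all 215 names compared. At least 1 log2 unit lower were 7 of the 22, and 0 were as much higher, where 18.1% of all names were lower by this much and 15.3% higher. After miR-466b-3p the 7 were miR-466d-5p (-2.22), miR-669d (-2.0), miR-467a (-1.69), miR-669a (pre) (-1.64), miR-467d (-1.20) and miR-466c-5p (-1.18). Sequences under the floor of 10 are missing from the sum of a name, which can enlarge such ratios. The only miR-466b-3p sequence listed in DN3 Drosha had 62 in the control and 13 in Drosha, while the name had 207 and 13. For miR-466d-5p that sequence had 22 and 10 (name 63 and 10), and for miR-669d 28 and 13 (name 70 and 13). For miR-467a it had 135 and 36, near the name's 153 and 36. A further 5 members were listed in the control and not in Drosha, namely miR-669f, miR-466d-3p, miR-466a-5p, miR-466b-5p and miR-297b-3p, and none only in Drosha. With both values at 50 or more, 10 members could be compared and 2 were lower by this much.

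Member sequences in DN3 Drosha were also listed again less often than others, where a sequence not listed was under 10 and not known to be absent. Of the 87 member sequences in the DN3 control, 48 (55.2%) were listed again in DN3 Drosha, against 81.6% of the 980 other sequences. Among sequences with a control value under 50 the shares were 32.8% and 63.3%. In DN3 Dicer 81 of the 87 (93.1%) were listed again, beside 92.4% of the others.

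DN3 Dicer differed little from the control over the members. The sum was 1.10-fold above it, at 0.11 relative to the median miRNA, and the 26 members in both lists had a median of 0.03 beside -0.01 for all 226 names. Only miR-466d (pre) was at least 1 log2 unit higher (1.35) and only miR-669c as much lower (-1.29), where 3.1% of all names were higher and 5.75% lower by this much. The miR-466d (pre) name pools both arms. Its 5p sequence had 19 in the control and 24 in Dicer, and its 3p sequences, at 14 and 12 in Dicer, were not listed in the control.

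Between DN3 Dicer and DN3 Drosha, which is the same Drosha library as above and no separate evidence of its low values, the sum was 2.44-fold higher in Dicer, at 0.86 relative to the median miRNA. Of 21 members in both, 17 lay above the median, 8 at least 1 log2 unit higher and 1 as much lower (miR-669c, -1.04), where 20.4% of all names were higher and 17.5% lower. The members' median was 0.75, beside -0.03 for all names.

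In Treg the Drosha sum was 1.46-fold below the control, at -0.42 relative to the median miRNA. Of 22 members in both, 15 lay below the median and 6 above, with a median of -0.33 beside -0.03 for all 205 names. At least 1 log2 unit lower were 5 of the 22, namely miR-297c (-1.72), miR-669f (pre) (-1.65), miR-466d (pre) (-1.36), miR-297a (-1.26) and miR-466h (-1.01), where 11.2% of all names were lower. Only miR-466b-3p (1.20) was as much higher, where 21% of all names were. With both values at 50 or more, none of 8 members differed by this much.

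The Treg Dicer sum was 1.08-fold below the control and at 0.01 relative to the median miRNA, with 10 of the 20 members in both above the median and 10 below. miR-466d-3p (1.30), miR-466b-3p (1.30) and miR-669f (1.14) were at least 1 log2 unit higher, where 10.8% of all names were, and miR-466d (pre) (-1.24) was as much lower, where 5.91% were. The 3 higher names are all 3p arms, with low control values of 20, 35 and 27, and unlisted sequences can enlarge such ratios. The only miR-669f sequence of the control had 27 there and 43 in Dicer (name 27 and 55). For miR-466b-3p the sequence listed in both had 12 and 28 (name 35 and 80). Both miR-466d-3p sequences had 10 and 23. Against Treg Drosha the Dicer sum was at 0.45 relative to the median, with 3 of 19 members at least 1 log2 unit higher and 0 lower, where 2.82% and 14.6% of all names were.

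Of the 73 member sequences in the Treg control, 74.0% were listed again in Treg Drosha and 75.3% in Treg Dicer, beside 89.4% and 89.2% of the 889 others. Among sequences with a control value under 50 the shares were 60.4% and 62.5%, beside 78.6% and 77.9%. Treg Dicer was thus close to Treg Drosha by this measure, although its sum lay nearer the control. Markers of other blood cells moved with the Treg genotypes. The erythroid miRNAs miR-451, miR-144 and miR-486 held 0.120%, 0.831% and 0.0975% of Treg control, Drosha and Dicer, and the myeloid miR-223 held 0.00239%, 0.0573% and 0.0734%. In DN3 the erythroid share was 0.556%, 0.450% and 0.886% and the myeloid share 0.00282%, 0.00151% and 0.0122%. Their part in the member values was not tested.

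**Figure D4:**
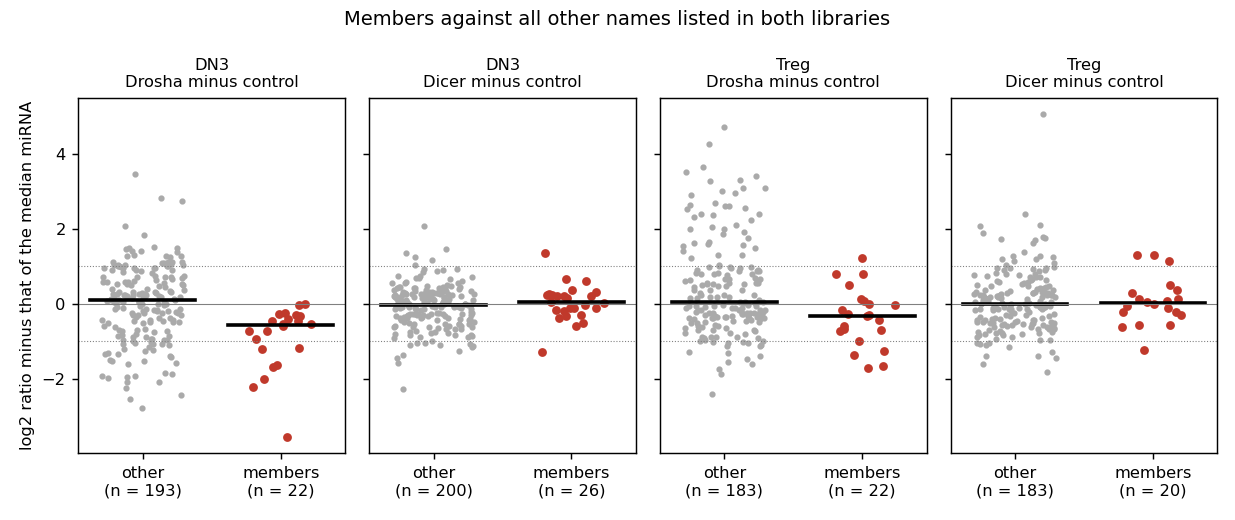
Points are names listed in both libraries of a comparison, grey for all other names and red for the members, with the log2 ratio relative to the median miRNA on the vertical axis, bars at the medians and dotted lines at 1 log2 unit either way. In DN3 all 22 members lie below 0 for Drosha minus control, and in DN3 Dicer and Treg Dicer they lie around 0.

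A test was possible across cell types, with the cell types as replicates. A limma model of log2(value + 1) that blocks on the cell type was fitted to 204 names listed in all 3 libraries of at least 2 cell types, 17 of them members. All 17 entered through DN3 and Treg alone, so the spread behind a member's test is that between these cell types, which cannot be told apart from the noise of single libraries. No member passed an adjusted p of 0.05 in any comparison, where 0%, 0% and 0.49% of all names passed for Drosha minus control, Dicer minus control and Dicer minus Drosha. At an unadjusted p under 0.05 there were 1, 0 and 0 members among 38, 4 and 22 names. Of all names, 58 entered with 3 cell types and 51 with 4, which adds CD4 or MEF libraries and replicates. The counts and medians over all names are thus not matched to those of the members.

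All 17 members had a negative limma estimate for Drosha minus control, as did 147 of the 204 names, and the members' median was -1.06 beside -0.52 for all. This scale is not set against the median miRNA. miR-297a had the lowest p among the members, with a log2 change of -1.36 ± 0.49 (SE, limma, Benjamini-Hochberg adjusted p = 0.248). The values of miR-466b-3p (-1.42 ± 1.25, adjusted p = 0.532) had a wide error because DN3 and Treg went in opposite directions. When unlisted names were given the floor of their library, which is 526 and 645 in the CD4 Drosha and Dicer libraries, 33 of the 34 members then in the fit had a positive estimate, so these directions hold only for listed values.

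For Dicer minus control 6 members had positive and 11 negative estimates, with a median of -0.13 beside -0.09 for all names and no adjusted p under 0.993. Scaled by median-of-ratios size factors, 12 were positive and 5 negative, so no direction can be read from them. For Dicer minus Drosha 16 of 17 were positive, with a median of 0.83 beside 0.38. The lowest p was that of miR-669a (pre), at 1.67 ± 0.68 (limma, adjusted p = 0.434).

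The arm of each sequence was then read from its place in the hairpin. As named, 3.88%, 0.423% and 3.53% of the members' value in DN3 control, Drosha and Dicer and 1.11%, 3.13% and 2.75% in Treg belonged to a 3p miRNA. By position the shares were 13.8%, 5.47% and 18.1% in DN3 and 16.9%, 22.0% and 25.0% in Treg, mainly because the 3p arm of miR-669a is listed as pre. Position was read after the data had been seen.

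In DN3 the arms moved by different amounts. The 5p sum was 5891 in the control, 2906 in Drosha and 6141 in Dicer. The 3p sum was 947, 168 and 1356. Relative to the median miRNA the Drosha library was at -0.64 on the 5p arm and at -2.11 on the 3p arm, and the Dicer library at 0.03 and 0.49.

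Of the 69 control sequences on the 5p arm, 44 were listed again in DN3 Drosha, but only 4 of the 18 on the 3p arm. With a floor of 10 per sequence, a low sequence is dropped whole, and the 3p sequences were mostly low. The highest 3p sequence, that of miR-669a (pre) shown above, does not depend on the floor, and it stood at 389, 108 and 612 in DN3 control, Drosha and Dicer. Leaving out miR-669a and its pre entries, the 3p share was 6.30%, 0.548% and 7.06%.

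In Treg the 5p sum was 4115, 2644 and 3441 and the 3p sum 834, 746 and 1144. Here Drosha was at -0.50 on the 5p arm and at -0.03 on the 3p arm relative to the median miRNA, and Dicer at -0.14 and 0.58. The Drosha shift between arms thus had opposite signs in DN3 and Treg, and this was not tested, with 1 library each. For miR-669a the 3p value divided by the 5p value was 0.531, 0.283 and 0.797 in DN3 and 0.938, 1.37 and 1.43 in Treg. The ratio was higher in Dicer than in control in both cell types, and each Treg ratio was above all DN3 ratios. It sets 3p sequences of 12 hairpins against 5p sequences of 14.

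The members were a large part of the sequences that the lists call pre. They made up 15.1%, 8.39% and 20.0% of all pre value in DN3 control, Drosha and Dicer and 16.0%, 14.7% and 27.0% in Treg. Within the members 13.2%, 11.2% and 16.6% of the DN3 value and 18.1%, 19.5% and 23.2% of the Treg value was listed as pre.

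**Figure D5:**
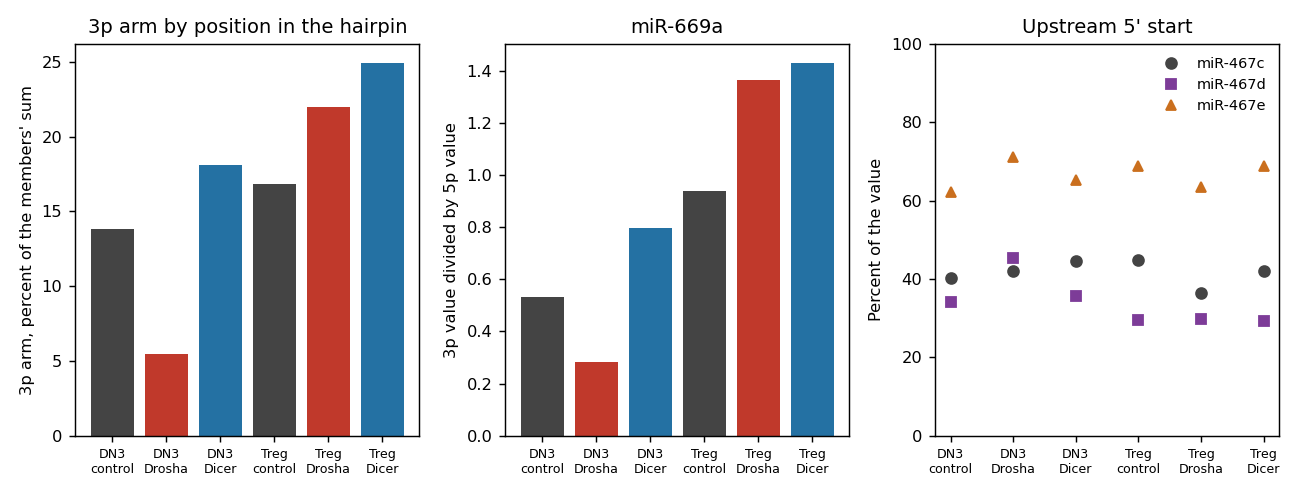
The left panel gives the percent of the members' value on the 3p arm by position in the hairpin, the middle panel the 3p value of miR-669a divided by its 5p value, and the right panel the percent of miR-467c, miR-467d and miR-467e value at the upstream 5′ start, for the 6 DN3 and Treg libraries (grey control, red Drosha, blue Dicer in the bars). The 3p share is lowest in DN3 Drosha (5.47%) and highest in Treg Dicer (25.0%), while miR-467e has the highest upstream share of the 3 names in every library.

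miR-467c, miR-467d and miR-467e each had 2 main 5′ ends a base apart, which changes the seed. They are shown because the seed, and so the set of possible targets, depends on this choice.
miR-467c, upstream start: aTAAGTGCgtgcatgtatatgt
miR-467c, downstream start: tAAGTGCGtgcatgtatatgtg
miR-467d, upstream start: aTAAGTGCgcgcatgtatatgc
miR-467d, downstream start: tAAGTGCGcgcatgtatatgc
miR-467e, upstream start: aTAAGTGTgagcatgtatatgt
miR-467e, downstream start: tAAGTGTGagcatgtatatgt

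The upstream start, with A as base 1, held 62.2%, 71.2% and 65.4% of the miR-467e value in DN3 control, Drosha and Dicer, and 68.8%, 63.5% and 68.8% in Treg. For miR-467c it held 40.3%, 42.1% and 44.6% in DN3 and 44.8%, 36.4% and 42.0% in Treg. For miR-467d it held 34.2%, 45.4% and 35.7% in DN3 and 29.6%, 29.8% and 29.2% in Treg. So miR-467e had most of its value at the upstream start and miR-467d at the downstream start in all 6 libraries. In DN3 the upstream share of miR-467d and miR-467e was highest in the Drosha library, while that of miR-467c was highest in Dicer. In Treg the shares of miR-467c and miR-467e were lowest in Drosha, and that of miR-467d was nearly equal in the 3 libraries. Each share is from 1 library, and a dependence on Drosha was not tested.

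The 3′ ends differed between DN3 and Treg. For miR-669a the 24-nt sequence was above the 22-nt sequence in all 3 DN3 libraries, and below it in all 3 Treg libraries, so these ends are shown.
miR-669a, 24 nt: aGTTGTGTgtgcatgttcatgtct
miR-669a, 22 nt: aGTTGTGTgtgcatgttcatgt

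The 24-nt sequence had 652, 270 and 569 in DN3 control, Drosha and Dicer and 252, 167 and 267 in Treg. The 22-nt sequence had 379, 220 and 474 in DN3 and 368, 200 and 299 in Treg. Over the sequences listed in all 6 libraries, the mean length at this start was 23.2, 23.0 and 23.0 nt in DN3 and 22.6, 22.8 and 22.8 nt in Treg. For miR-669c it was 23.2, 23.2 and 23.0 nt in DN3 and 22.4, 22.9 and 22.4 nt in Treg.

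Of 11 member names and starts with enough sequences, 7 (63.6%) were shorter in all 3 Treg than in all 3 DN3 libraries, 4 overlapped and 0 were longer. Among 129 others 59 (45.7%) were shorter in Treg, 68 overlapped and 2 were longer, with a median difference of -0.125 nt beside -0.145 nt for the members. Shorter 3′ ends in Treg thus occurred among the other miRNAs too, and the members' median was close to theirs.

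The gene list of the DN3 control, which gives sequences and positions but no counts, held 59 different Sfmbt2 sequences, all sense and all intronic, of 18 to 28 nt with a median of 22 nt. By the number of sense intronic sequences Sfmbt2 ranked 15 of 6586 genes, where the median gene had 2. None of the 59 occurs in the miRNA lists. Their positions run from 10386926 to 10438056 on chromosome 2 in a build that is not given in the sources used here and is not GRCm38.

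Matched by sequence, 34 of the 59 lie wholly in 5 annotated hairpins of the same families, Mir466m, Mir669l, Mir466o, Mir466n and Mir669o. The other 25 lie wholly in none, and partial overlap with a hairpin was not measured. Thus the 34 are sequences of family hairpins that the miRNA lists do not hold. Sequences of Mir669o (14 in all) and Mir669l are shown because some of them have the miR-669a seed GTTGTGT, and those of Mir466o and Mir466n because they are 3p arms.
Mir669o, 5p arm: aGTTGTGTgtgcatgtttatgt
Mir669o, 5p arm, start upstream: tAGTTGTGtgtgcatgtttatgt
Mir669l, 5p arm: aGTTGTGTgtgcatgtatatgt
Mir466o, 3p arm: tATACATAcatgcacacataag
Mir466n, 3p arm: tATACATGagagcatacataga

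The 59 sequences formed 20 stacks of overlapping positions, of which 14 held no sequence that lies wholly in an annotated hairpin. The stack at Mir669o held 14 sequences, 6 of them at a 5′ end with the seed AGTTGTG. As many began a base downstream, with the seed GTTGTGT. The stacks at Mir466n held 10 sequences on the 3p arm and 1 on the 5p arm. A seed of a listed member was found in 29 of the 59, 8 of them among the 25 that lie wholly in no hairpin, and 14 had the miR-669a seed GTTGTGT. No genic list of a deficient library was analysed here, so their dependence on Drosha or Dicer was not measured.

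Other miRNAs from imprinted loci did not follow the members over cell types. A list of miRNAs of the Dlk1-Dio3, Gnas, H19 and Mest regions held 0.192%, 0.235% and 0.139% of DN3 control, Drosha and Dicer, 0.0296%, 0.0425% and 0.0250% of Treg, 5.05%, 0.231% and 0.633% of CD4, and 7.46%, 4.64% and 6.24% of MEF. Among the controls their share was thus highest in MEF, where that of the members was lowest. The lists come in 2 formats, so this was not tested. The CD4 control, Drosha and Dicer lists held 20, 2 and 3 of these names, with lowest values of 20, 526 and 645 for any miRNA. In MEF Drosha 42 of them were listed along with the control, with a median of -0.13 relative to the median miRNA. In DN3 Drosha 3 were, with a median of 0.58.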

How the data were processed

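Small RNAs of 19 to 30 nt that end in a 5′ phosphate and 3′ hydroxyl were cloned, adaptors were clipped and reads were mapped to miRNA loci, per the labels' protocols. The deposited values are a score, mapping counts normalised by the authors to about 1000000 per library and rounded, per the file headers; the DN3 Dicer header says only mapping count. Positions in the gene list are as deposited and were taken to count from 0. The aligner, the miRBase release and the build are not given in the sources used here. Values were summed per name without species prefix and copy number. Arms were read by exact match to GENCODE M21 hairpins, and the RefSeq table held only 9 of the families' hairpins. limma 3.58.1 (R 4.3.3) was run on log2(value + 1) for names at 10 or more in all 3 libraries of at least 2 cell types, with Benjamini-Hochberg adjustment, and tested on simulated data. Raw counts had been allowed for in the plan, but normalised values were found, so no count test was run. Ratios used Python 3.11.15 and numpy 2.4.6 with a pseudocount of 0.5. Members, lists and tests were chosen with earlier results of these data known. Values in every library were given for members listed in all 3 libraries of a cell type, the 5 highest per control, and the 3 highest in a deficient library that the control did not list; the remaining names were added. Nothing in the labels says that libraries came from separate pools of animals, and no group was replicated. No paired numbers exist. Alternatives tried were other pseudocounts, filters, floors, scalings, arms, hairpin sets and leaving out each cell type.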

Additional observations from a re-analysis of the deposited data

Results flagged for a closer look

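With 1 library per combination, the results below were picked out because a member stood on opposite sides of the median miRNA in DN3 and Treg, with at least 1 log2 unit between them. None of these differences was tested, and the values of miR-466d-5p and miR-466d (pre) lie near the floor of 10. So do those of miR-466b-3p and miR-669d in DN3 Drosha, at 13 each. Other low values were 35 for miR-466b-3p in the Treg control, and 26 for miR-466h and 22 for miR-669f (pre) in Treg Drosha. Each is given as DN3 minus Treg, on the log2 scale.

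For Drosha minus control, miR-466b-3p differed by -4.77 (-3.56 in DN3 and 1.20 in Treg), miR-466d-5p by -2.71 (-2.22 and 0.50) and miR-467a by -1.76 (-1.69 and 0.07). miR-466b-3p is a 3p arm, and miR-466d-5p and miR-467a are 5p arms.

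For Dicer minus control, miR-466b-3p differed by -1.42 (-0.12 in DN3 and 1.30 in Treg), miR-669c by -1.43 (-1.29 and 0.14) and miR-466d (pre) by 2.58 (1.35 and -1.24). The last name pools both arms, and its 3p sequences were listed only in DN3 Dicer and the Treg control. The control libraries are those of the Drosha comparison.

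For Dicer minus Drosha, miR-466d-5p differed by 2.18 (2.08 in DN3 and -0.10 in Treg), miR-467a by 2.30 (1.64 and -0.66) and miR-669d by 1.87 (1.69 and -0.18). In the other direction miR-466h differed by -1.38 (-0.07 and 1.32), miR-669c by -1.20 (-1.04 and 0.16) and miR-669f (pre) by -1.62 (-0.18 and 1.44). The deficient libraries are those of the comparisons above.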

How the results depend on the processing

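No paired analysis was possible because each group had 1 library and the labels give no replicate numbers. The cause of each change below was not tested unless the setting itself shows it. The arm by RefSeq mature sequence was not run, since the reference table lacks most members; arms by GENCODE hairpin, the single-hairpin sequences and the arms taken alone were added after seeing the data. Of 141 alternative values, 80 stayed within the counting error or within 1.5 times of the value reported. For DN3 and Treg this error took each normalised unit as 1 read. Their depth is unknown, so it is a nominal limit there and not a measured error.

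Names called for Dicer minus Drosha were 1 in the report, 0 with floors for unlisted values and 0 to 2 with each cell type left out, 2 without Treg; for the other comparisons they were 0 in every setting. Without DN3 or without Treg no member could be tested.

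With mature entries only, the DN3 sums were 5933, 2731 and 6266 in control, Drosha and Dicer and the Treg sums 4063, 2728 and 3523. With names of Sfmbt2 hairpins only, MEF Dicer was 73. As multiples of the library's median listed miRNA, the sums were 23.7, 13.5 and 24.6 in DN3, 30.1, 20.1 and 22.0 in Treg, 5.43 and 0.400 in CD4 control and Drosha, and 1.18, 1.08 and 0.780 in MEF.

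Set against the library total, the log2 ratio of the sums was -1.15 (DN3 Drosha minus control), 1.29 (DN3 Dicer minus Drosha), -0.58 (Treg Drosha minus control) and, with the sign turned, -0.13 (Treg Dicer minus control), -0.39 (CD4 Drosha minus control), -0.80 (MEF Drosha minus control) and 0.073 (MEF Dicer minus Drosha). Treg Dicer minus control, reported as 0.01, was -0.0031 with a pseudocount of 10, -0.033 with sequences of a single hairpin, -0.14 on the 5p arm and 0.58 on the 3p arm, so it has no stable sign. With single-hairpin sequences DN3 Drosha minus control was -0.57 and DN3 Dicer minus Drosha 0.67. On the 5p arm alone the ratios were -0.64, 0.035 and 0.65 in DN3 (Drosha minus control, Dicer minus control, Dicer minus Drosha) and -0.50 in Treg Drosha minus control. On the 3p arm they were -2.11, 0.49 and 2.58 in DN3 and -0.027 and 0.63 in Treg (Drosha minus control, Dicer minus Drosha). CD4 Drosha minus control was 4.34 with floors for unlisted members, and MEF Dicer minus Drosha -1.85 over the 1 member in both.

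Members at least 1 log2 unit from the median, with both values at 50 or more, numbered 2 of 7, 1 of 2 and 3 of 9 in DN3 and 0 of 6, 0 of 4 and 0 of 3 in Treg; fewer members were compared. DN3 Dicer minus Drosha had 14 relative to the library total, and Treg Dicer minus control 2 with a pseudocount of 10. The 3p shares by position were 13.8%, 5.47% and 18.1% in DN3 and 16.9%, 22.0% and 25.0% in Treg. Sfmbt2 sequences that lie wholly in no annotated hairpin numbered 25 of 59. The CD4 and MEF values rest on few reads.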
